A study of Homo sapiens with 12 samples.

Results

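The SOX genes encode transcription factors that share a DNA-binding domain, the HMG box, and 8 of them, SOX2, SOX4, SOX5, SOX6, SOX7, SOX9, SOX12 and SOX13, are described here in lung cancer cells treated with erlotinib. The 8 genes were taken as a list of names, with no measured value in the choice, from 19775 genes that had a probe set paired with a single gene symbol. Each was represented by its brightest probe set by mean over 12 arrays, and its other probe sets served as a check. Genes entered the tests when any group's mean signal was 13 or more, 13 being the median of the whole table. This held for 7 of the 8 SOX genes (all but SOX5) and for 13185 genes in all.

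Messenger RNA was measured on 12 one-colour arrays in 4 groups of 3: PC9 with erlotinib, PC9 with DMSO, HCC827 with erlotinib and HCC827 with DMSO. PC9 and HCC827 are established human lung adenocarcinoma lines with activating mutations of the receptor EGFR, and erlotinib inhibits its kinase. Cells received 2 micromolar erlotinib or the solvent DMSO for 8 days in RPMI with 10% serum, renewed after day 4. Per the treatment protocol DMSO cultures were plated in dishes and erlotinib cultures, with more cells, in flasks, so density and vessel cannot be told apart from the drug, and the series description gives flasks for all cells. Whether replicate arrays stem from separate cultures is not given, and the p-values therefore measure only the spread between these samples. Each line is a single cell line, so a difference between them is a difference between those lines and not between EGFR-mutant tumours.

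Median signals of the arrays lay between 11.1 and 14.5, and arrays of a group correlated across probe sets with r of 0.9926 to 0.996. The number of arrays limited the precision. DUSP6, SPRY4, ETV4 and ETV5, genes driven by EGFR and ERK signalling, were all lower with erlotinib in both lines (limma, 4 of 4). All 5 epithelial markers (EPCAM, CDH1, KRT8, KRT18, KRT19) were bright, with summed signals of 10590.4 to 14438.6. Of 4 measured leukocyte markers 1 (CD79A) passed the filter and its highest signal was 25.4; it averaged 4.97 with erlotinib and 24 with DMSO in HCC827. Of 5 neural crest and glial markers 3 were measured and 1 (MITF) passed the filter. Their sums were 353.1 to 394.8 on PC9 erlotinib and 208.3 to 230.8 on PC9 DMSO arrays, and 1070.9 to 1112.3 on HCC827 erlotinib and 1148.2 to 1172.2 on HCC827 DMSO arrays. The part of these markers in the SOX results was not tested. Endothelial and fibroblast markers follow further on. The actin 3'/5' ratio, a sign of RNA integrity read from control probe sets, was 2.054 to 2.531 on PC9 erlotinib and 2.087 to 2.354 on PC9 DMSO arrays, but 2.45 to 3.644 on HCC827 erlotinib and 2.103 to 2.211 on HCC827 DMSO arrays.

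SOX proteins bind a short AT-rich site in the minor groove and bend the DNA, and most act with a partner factor. They fall into groups by the HMG box: SOX2 is a B group member and an activator that keeps stem and progenitor cells undifferentiated; SOX4 and SOX12 belong to the C group of activators; SOX5, SOX6 and SOX13 to the D group, which has no activation domain of its own and pairs through a coiled coil; SOX9 to the E group; and SOX7 to the F group, best known from blood vessels. In the developing mouse lung Sox2 marks the conducting airway and Sox9 the distal tips, and human SOX2 is an oncogene of squamous lung cancer.

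Erlotinib moved the SOX genes in different directions. In PC9 SOX4 and SOX12 rose, SOX6, SOX7, SOX9 and SOX13 fell, and SOX2 did not pass the test. In HCC827 SOX4, SOX7 and SOX12 rose, SOX2 fell, and SOX6, SOX9 and SOX13 did not pass. A call was a Benjamini-Hochberg adjusted p under 0.05 in limma over all 13185 genes. Thus 6 of 7 were called in PC9, where 64.7% of all tested genes were, and 4 of 7 in HCC827, where 51.7% were, so the counts themselves lay near those of any gene. In PC9 36.3% of tested genes were called higher and 28.3% lower, against 2 and 4 of the 7, and in HCC827 32.2% and 19.5%, against 3 and 1. The 3 erlotinib and 3 DMSO arrays were fully apart for 7 of 7 in PC9 (64.9% of tested genes) and 5 of 7 in HCC827 (62.1%). These counts include SOX2 in PC9 and SOX6 in HCC827, which lay under the table's median on every array, where order is not read as a level. The median log2 difference of the 7 was -0.48 in PC9, against 0.047 for all tested genes, and -0.058 in HCC827, against 0.068. As RNA of whole cultures was measured, fewer cells with a transcript and less transcript per cell cannot be told apart.

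**Figure D1:**
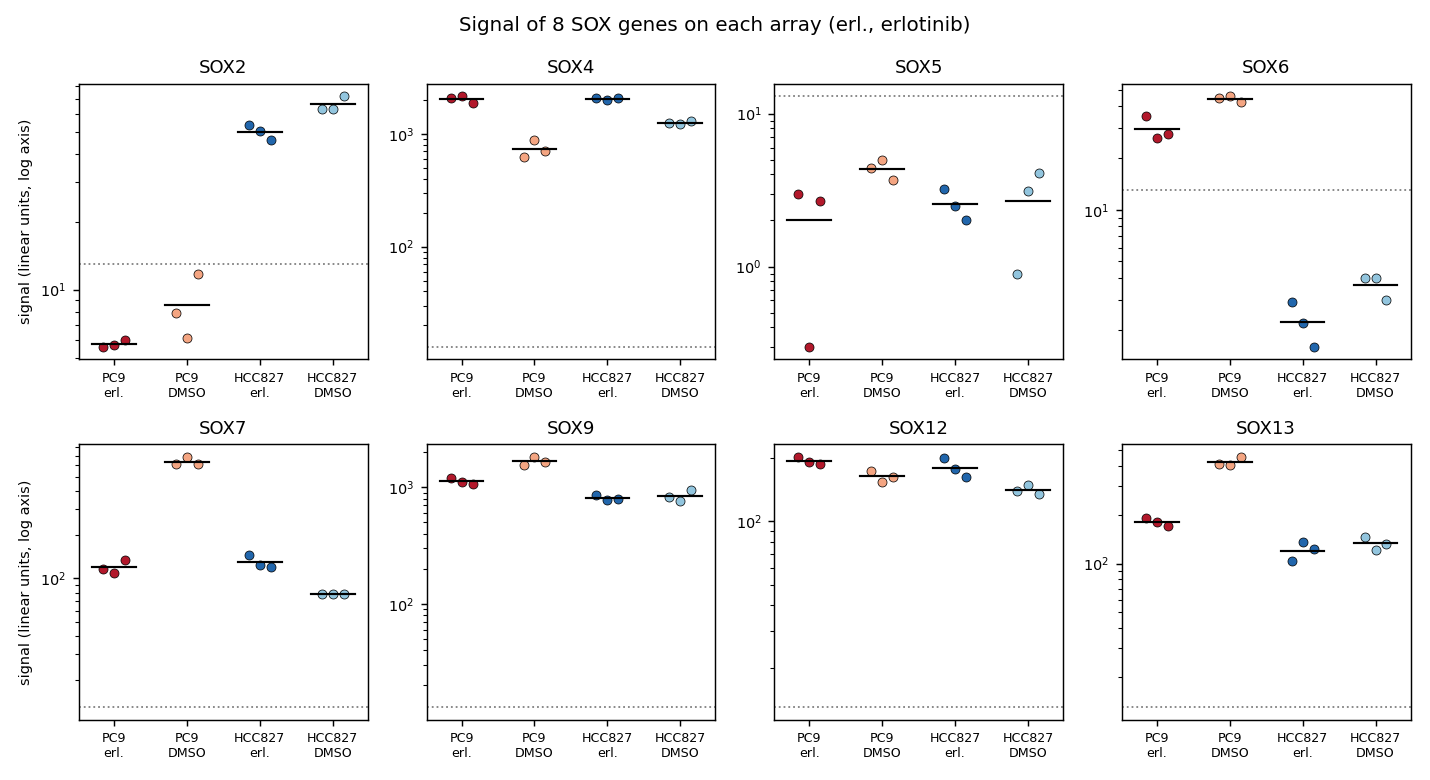
Signal of the brightest probe set of each SOX gene on each of the 12 arrays (linear signal units, log axis that differs between panels). Points are arrays, bars are means of 3 arrays, and the dotted line is the table's median signal of 13; SOX4 is higher with erlotinib in both lines, and SOX7 is lower in PC9 and higher in HCC827.

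SOX4, a C group activator known as a target of TGF-beta signalling, was higher with erlotinib in both lines. Its signal was 2089.1, 2160.4 and 1891.8 on the PC9 erlotinib arrays, against 623.8, 887.8 and 705.8 on the PC9 DMSO arrays. In HCC827 it was 2077.7, 1988.9 and 2087.9 with erlotinib, against 1245.4, 1211.0 and 1289.2 with DMSO. The treatments did not overlap in either line, and the erlotinib arrays of the lines overlapped each other on this probe set. The log2 difference of signal plus 8 was 1.47 ± 0.09 (SE) in PC9 (limma, adjusted p = 7.16e-10) and 0.71 ± 0.09 in HCC827 (limma, adjusted p = 7.55e-06), that is 2.78-fold and 1.64-fold. The PC9 change exceeded the HCC827 change by 0.76 ± 0.13 (limma interaction, adjusted p = 1.83e-04). In DMSO, SOX4 was lower in PC9 than in HCC827, with means of 739 ± 135 and 1249 ± 39 (SD, n = 3), a log2 difference of -0.77 ± 0.09 (limma, adjusted p = 1.04e-06). The same DMSO arrays enter the line comparison and both responses, so these values are not independent of each other.

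All 5 SOX4 probe sets that reached the filter rose in both lines (limma, each probe set tested singly), and the size differed between them. The brightest had the smallest change. The others rose by 2.01 to 3.20 on the log2 scale in PC9 and by 1.29 to 2.29 in HCC827. The probe set with the largest change, 201416_at, read 760.3, 639.3 and 744.7 in PC9 with erlotinib, against 82.3, 65.0 and 65.9 with DMSO. In HCC827 it read 791.9, 832.6 and 844.5 with erlotinib, against 136.0, 172.4 and 179.4 with DMSO. The 2.78-fold given for SOX4 in PC9 thus stands at the low end of what its probe sets read. The difference between lines in DMSO was not called on 201418_s_at (log2 -0.029, adjusted p = 0.854 in limma). With erlotinib the arrays of the lines were apart on all probe sets over the filter but the brightest, and not in 1 direction. PC9 was lower than HCC827 on 201416_at (means 714.8 and 823). It was higher on 201418_s_at (959.9 and 593.6), 213665_at (200.7 and 150.3) and 213668_s_at (113.8 and 91.4).

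SOX12, the other C group member among the chosen SOX genes, was slightly higher with erlotinib in both lines. It read 203.1, 191.6 and 187.6 in PC9 with erlotinib, against 174.7, 154.8 and 162.9 with DMSO. In HCC827 it read 199.8, 177.5 and 162.1 with erlotinib, against 139.2, 148.6 and 135.0 with DMSO. The arrays of the treatments did not overlap, although the gaps were small. The log2 differences were 0.23 ± 0.09 in PC9 (limma, adjusted p = 0.0304) and 0.33 ± 0.09 in HCC827 (limma, adjusted p = 0.0052), and they did not pass the test of a difference (-0.098 ± 0.125, limma, adjusted p = 0.55). The PC9 call was lost with quantile normalization (0.11, adjusted p = 0.284) and median centring (0.086, adjusted p = 0.46), and without PC9 DMSO replicate 2 (0.19) or 3 (0.23) or PC9 erlotinib replicate 1 (0.20) or 2 (0.24). With the mean of both SOX12 probe sets neither line passed (0.18, adjusted p = 0.188, and 0.19, adjusted p = 0.177, in limma). Genes called higher in both lines, as SOX4 and SOX12 were, made up 20.3% of all tested genes.

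The windows from 250 bases before to 50 after the start of SOX4 (chr6:21593501-21593800) and SOX12 (chr20:325302-325601), both on the plus strand of GRCh38.p14, are printed from RefSeq because these are the SOX genes called higher with erlotinib in both lines. Capitals mark matches on either strand to the SOX core ACAAT, the SOX and TCF core spelled ACAAAG, the AP-1 site TGANTCA, the FOXO site GTAAACA, the ETS site CCGGAAGT and the CCAAT box. The motif list was chosen with these sequences in view.
SOX4: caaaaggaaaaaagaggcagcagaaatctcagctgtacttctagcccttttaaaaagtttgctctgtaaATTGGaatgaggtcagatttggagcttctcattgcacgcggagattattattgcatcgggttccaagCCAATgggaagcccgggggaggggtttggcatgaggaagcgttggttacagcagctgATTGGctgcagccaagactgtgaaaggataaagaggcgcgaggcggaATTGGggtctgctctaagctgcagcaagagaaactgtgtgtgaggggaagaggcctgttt
SOX12: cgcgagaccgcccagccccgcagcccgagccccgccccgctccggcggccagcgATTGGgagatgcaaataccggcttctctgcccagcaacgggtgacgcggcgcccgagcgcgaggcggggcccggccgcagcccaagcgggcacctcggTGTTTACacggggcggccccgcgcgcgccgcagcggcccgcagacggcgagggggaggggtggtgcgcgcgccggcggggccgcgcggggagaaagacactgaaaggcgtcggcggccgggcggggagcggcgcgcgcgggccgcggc
The SOX4 window held 4 CCAAT box matches, starting at -181, -114, -57 and -10, and no match to the other motifs. At least 1 CCAAT match was present in 34.6% of 35116 windows of that length and at least 4 in 0.991%. The SOX12 window held 1 CCAAT match at -196 and 1 FOXO match at -98, a motif found in 3.42% of windows. The windows differed in base composition, with 49.3% G and C for SOX4 and 80.3% for SOX12, and 58.7% as the median of all windows. No match of the marked motifs overlapped another in either window, and a match is a description of letters, not of a bound site.

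SOX7, an F group factor of the vascular endothelium that can also restrain WNT signalling, was lower with erlotinib in PC9 and higher in HCC827. In PC9 its signal was 116.1, 109.3 and 133.3 with erlotinib, against 613.4, 685.3 and 609.0 with DMSO. In HCC827 it was 144.7, 124.0 and 120.7 with erlotinib, against 78.4, 78.4 and 78.0 with DMSO. The treatments did not overlap in either line, while the erlotinib arrays of the lines lay in the same range. SOX7 fell by 2.34 ± 0.09 on the log2 scale in PC9 (5.06-fold, limma, adjusted p = 2.93e-12), and 43 of 13185 genes fell further. It rose by 0.67 ± 0.09 in HCC827 (1.59-fold, limma, adjusted p = 1.71e-05), and the responses differed by -3.01 ± 0.13 (limma interaction, adjusted p = 5.77e-11). A gene called lower in PC9 and higher in HCC827 was found in 3.07% of tested genes. The other SOX7 probe set, 224013_s_at, fell by 1.83 ± 0.14 in PC9 and rose by 0.51 ± 0.14 in HCC827 (limma, adjusted p = 1.07e-08 and 0.00704). In DMSO SOX7 averaged 636 ± 43 in PC9 and 78.3 ± 0.2 in HCC827 (SD, n = 3), a log2 difference of 2.90 ± 0.09 (limma, adjusted p = 4.09e-14).

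Endothelial markers did not all follow SOX7. Summed over the 5 of the list, all measured, they read 654.1 to 705.8 on PC9 erlotinib arrays and 895.2 to 988.7 on PC9 DMSO arrays. In HCC827 the sums were 12 to 20.2 with erlotinib and 12.7 to 13 with DMSO. PECAM1 made up most of the PC9 sum, with 521.7, 477.3 and 520.4 with erlotinib, against 878.9, 782.9 and 843.6 with DMSO. VWF, KDR and TEK did not pass the filter and none was above 5.3 on any array. Their part in the SOX7 result was not tested. Of 7 genes listed as targets of SOX7, SOX17 and SOX18 in vessels, 2 passed the filter: the cadherin CDH5 and the protease MMP7. CDH5 was higher with erlotinib in PC9 (mean 177.8 against 104.9 in DMSO, limma, adjusted p = 3.99e-05). MMP7 was lower with erlotinib in HCC827 (mean 23.4 against 58.9 in DMSO, limma, adjusted p = 2.51e-04). In PC9 both MMP7 means (10.5 with erlotinib and 1.9 with DMSO) lay under the table's median, and the difference is not read. MMP7 was not called in HCC827 with the actin ratio as covariate (-0.75, adjusted p = 0.0638).

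SOX13, a D group factor known from mouse T cells to bind a TCF protein, was lower with erlotinib in PC9. It read 192.1, 181.1 and 170.8 with erlotinib, against 411.0, 407.9 and 454.6 with DMSO. In HCC827 it read 103.1, 134.9 and 123.0 with erlotinib, against 145.6, 121.6 and 131.7 with DMSO, and the arrays overlapped. SOX13 fell by 1.19 ± 0.10 on the log2 scale in PC9 (2.28-fold, limma, adjusted p = 2.62e-08). The HCC827 difference of -0.14 ± 0.10 did not pass (limma, adjusted p = 0.256; -0.36 with the actin ratio as covariate, adjusted p = 0.0539), and the responses differed by -1.05 ± 0.14 (limma interaction, adjusted p = 1.78e-05). In DMSO it was 3.07-fold higher in PC9 than in HCC827 (log2 1.62 ± 0.10, limma, adjusted p = 2.34e-10). Its probe set 209736_at gave -1.33 ± 0.09 in PC9 and -0.16 ± 0.09 in HCC827. The third SOX13 probe set stayed under the filter.

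**Figure D2:**
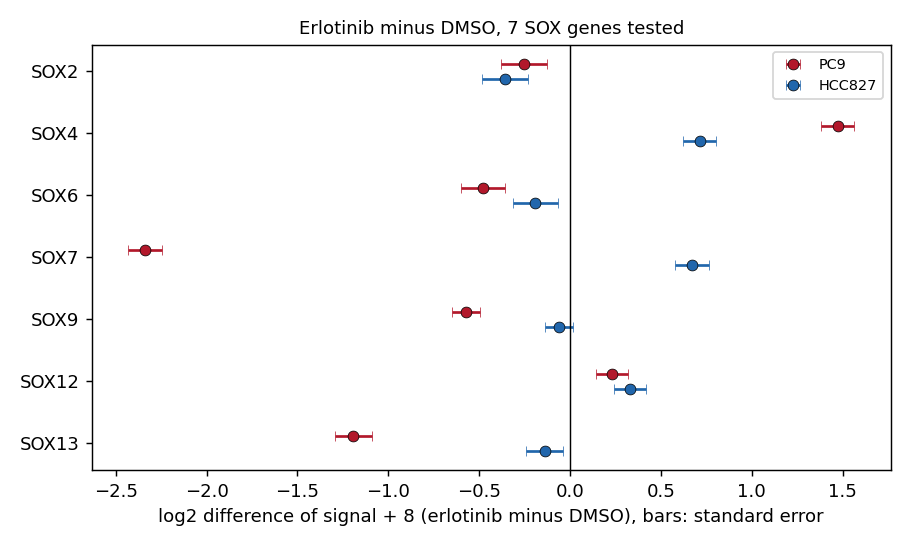
Log2 difference of signal plus 8, erlotinib minus DMSO, for the 7 SOX genes tested, in PC9 (red) and HCC827 (blue). Points are limma estimates from 3 arrays a group and bars are standard errors; SOX7 lies at -2.34 in PC9 and 0.67 in HCC827, and SOX4 lies above 0 in both.

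The SOX13 window (chr1:204072865-204073164, plus strand, GRCh38.p14, RefSeq) is printed as that of the D group member with the largest fall, and none of the motifs listed above occurred in it.
SOX13: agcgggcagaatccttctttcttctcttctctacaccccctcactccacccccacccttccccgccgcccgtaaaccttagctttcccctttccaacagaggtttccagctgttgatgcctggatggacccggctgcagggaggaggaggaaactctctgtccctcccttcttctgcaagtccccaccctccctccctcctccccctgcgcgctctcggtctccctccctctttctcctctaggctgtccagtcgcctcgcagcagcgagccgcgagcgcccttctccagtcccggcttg

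SOX6, a second member of the D group, was seen above the filter in PC9 and not in HCC827. It read 35.0, 26.3 and 27.6 in PC9 with erlotinib, against 44.6, 45.8 and 42.3 with DMSO, with no overlap. In HCC827 it read 2.9, 2.2 and 1.6 with erlotinib, against 4.0, 4.0 and 3.0 with DMSO, all under the table's median, where order is not read as a level. SOX6 fell by 0.48 ± 0.12 on the log2 scale in PC9 (limma, adjusted p = 0.00255). Other probe sets did not share the call: 227497_at and 227498_at gave -0.26 and -0.25 in PC9 and did not pass (limma). The mean of all 8 probe sets gave -0.13 (limma, adjusted p = 0.259). Probe set 235526_at gave 0.77 ± 0.19 (limma, adjusted p = 0.00258), but passed the filter only through the PC9 erlotinib arrays. It averaged 17.6 with erlotinib and 7.07 with DMSO in PC9, the latter under the table's median, so its rise is not read. As HCC827 signals of SOX6 lay so low, no difference between the responses of the lines is read for it. SOX5, the remaining D group member, did not pass the filter, and the highest signal of its 4 probe sets on any array was 6.6. On its brightest probe set SOX5 read 3.0, 0.3 and 2.7 in PC9 with erlotinib, against 4.4, 5.0 and 3.7 with DMSO. With no filter the difference was -0.32 in PC9 (limma, adjusted p = 0.0715) and -0.008 in HCC827 (limma, adjusted p = 0.978).

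SOX9, an E group factor of cartilage and of epithelial progenitors, was lower with erlotinib in PC9. Its signal was 1192.4, 1108.7 and 1069.3 with erlotinib, against 1563.6, 1823.3 and 1647.6 with DMSO. In HCC827 it was 860.5, 777.3 and 792.9 with erlotinib, against 821.8, 770.7 and 945.4 with DMSO, and the arrays overlapped. SOX9 fell by 0.57 ± 0.08 on the log2 scale in PC9 (1.49-fold, limma, adjusted p = 6.60e-06). The HCC827 difference was -0.058 ± 0.077 (limma, adjusted p = 0.555), and the responses differed by -0.52 ± 0.11 (limma interaction, adjusted p = 0.00119). On the other probe set, 202935_s_at, SOX9 fell in both lines, by 0.78 ± 0.13 in PC9 and by 0.35 ± 0.13 in HCC827 (limma, adjusted p = 7.28e-05 and 0.039), and the difference between responses did not pass (-0.44, adjusted p = 0.0728 in limma). In DMSO SOX9 was 1.98-fold higher in PC9 than in HCC827 (log2 0.98 ± 0.08, limma, adjusted p = 5.83e-09).

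SOX2, the B group stem cell factor, was seen above the filter in HCC827 and not in PC9. In HCC827 it read 53.4, 50.3 and 45.8 with erlotinib, against 63.4, 63.0 and 72.0 with DMSO, with no overlap. In PC9 it read 5.6, 5.7 and 6.0 with erlotinib, against 7.9, 6.1 and 11.7 with DMSO, all under the table's median. SOX2 fell by 0.36 ± 0.13 on the log2 scale in HCC827 (limma, adjusted p = 0.0272). The PC9 difference of -0.25 ± 0.13 did not pass (limma, adjusted p = 0.0929), but did without PC9 DMSO replicate 2 (-0.36, adjusted p = 0.0252) with median centring (-0.40, adjusted p = 0.0111) and with quantile normalization (-0.31, adjusted p = 0.0478). The HCC827 call was lost without HCC827 DMSO replicate 3 (-0.30, adjusted p = 0.108), HCC827 erlotinib replicate 2 (-0.37, adjusted p = 0.0571) or 3 (-0.31, adjusted p = 0.0961), with 1 in place of 8 added (-0.40, adjusted p = 0.106), with the actin ratio as covariate (-0.34, adjusted p = 0.223) and with the mean of all 4 probe sets (-0.004, adjusted p = 0.981). Of the other 3 SOX2 probe sets 1 reached the filter and was not called in either line.

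**Figure D3:**
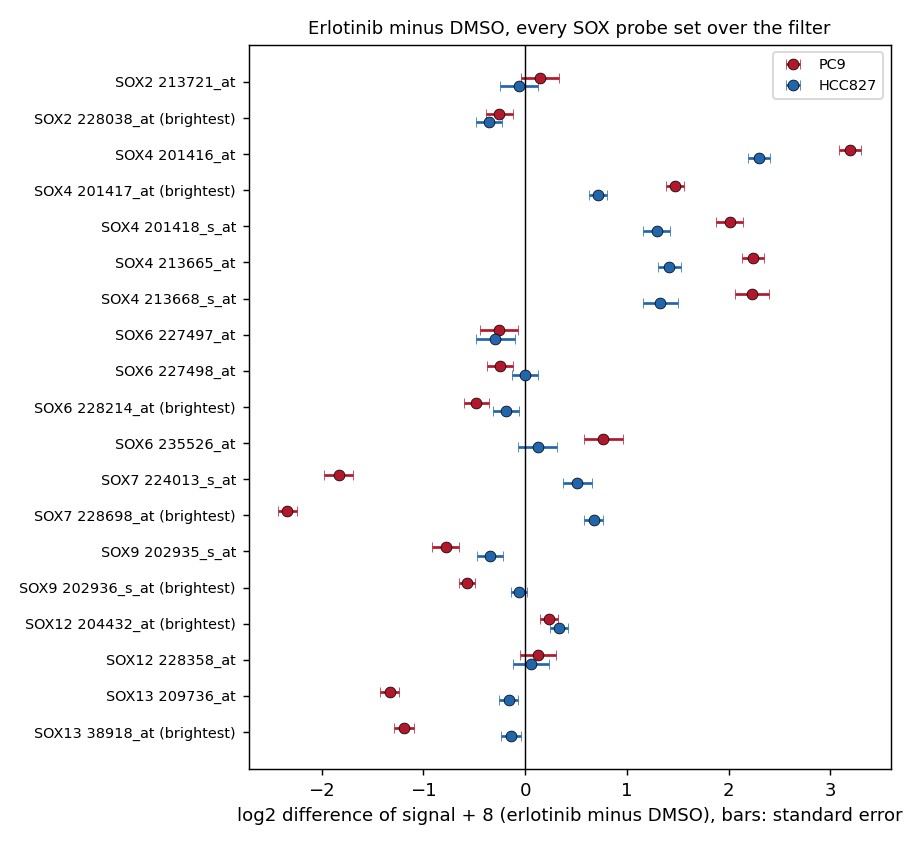
Log2 difference of signal plus 8, erlotinib minus DMSO, for the 19 of 31 SOX probe sets over the filter, in PC9 (red) and HCC827 (blue), with standard errors as bars. The 5 SOX4 probe sets lie above 0 in both lines and both SOX7 probe sets lie on opposite sides of 0 in the lines. SOX7 probe set 224013_s_at averaged under the table's median with DMSO in HCC827 and with erlotinib in PC9.

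Between the untreated lines, 7 of 7 SOX genes differed (limma), against 76.2% of all tested genes. SOX6, SOX7, SOX9, SOX12 and SOX13 were higher in PC9, and SOX2 and SOX4 were lower in PC9 than in HCC827, where 36.8% of tested genes were called higher and 39.4% lower in PC9. Arrays of the lines did not overlap for any of the 7, which held for 78.5% of tested genes. SOX2 averaged 8.57 ± 2.86 in PC9 and 66.1 ± 5.08 in HCC827 (SD, n = 3), a log2 difference of -2.17 ± 0.13 (limma, adjusted p = 1.26e-10). SOX6 averaged 44.2 ± 1.78 in PC9 and 3.67 ± 0.58 in HCC827, a log2 difference of 2.16 ± 0.12 (limma, adjusted p = 7.28e-11). Both genes passed the filter only through the line in which they were high, so their difference follows in part from being tested. Its size depended on the constant added and on the probe set, from -2.85 to -0.68 for SOX2 and from 0.77 to 3.28 for SOX6 over the settings. SOX2 probe set 213721_at gave -0.67 ± 0.19 (adjusted p = 0.00423 in limma). For SOX6, 227497_at and 227498_at gave 1.41 and 1.72, and 235526_at was not called (-0.26, adjusted p = 0.232 in limma). On 235526_at both DMSO means (7.07 in PC9 and 10 in HCC827) lay under the table's median. SOX12 differed least (log2 0.21 ± 0.09, limma, adjusted p = 0.0427). Its call was lost without HCC827 DMSO replicate 1 (0.20) or 3 (0.18), PC9 DMSO replicate 1 (0.17) or 3 (0.21), or HCC827 erlotinib replicate 2 (0.21, adjusted p = 0.0511). It was also lost in limma with the mean of both probe sets (0.26, adjusted p = 0.0566) and with no filter (0.21, adjusted p = 0.0548). The other SOX12 probe set was not called (0.31, adjusted p = 0.137 in limma).

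**Figure D4:**
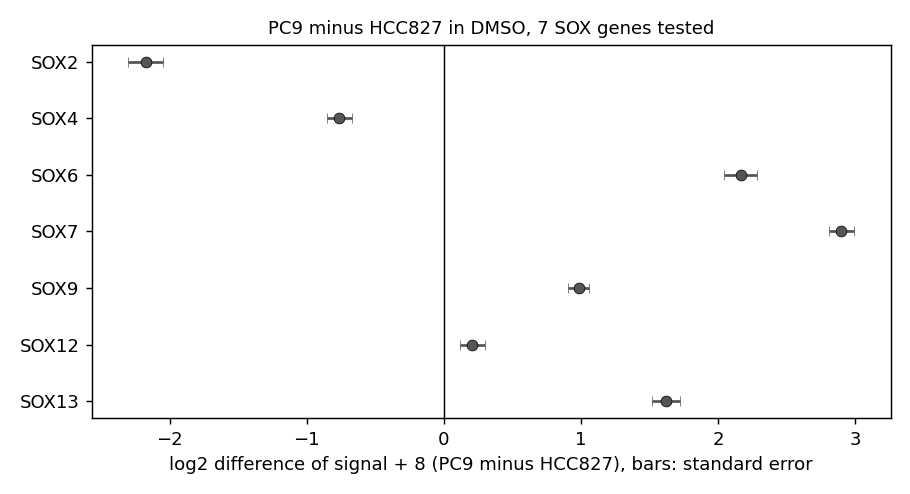
Log2 difference of signal plus 8, PC9 minus HCC827 in DMSO, for the 7 SOX genes tested, with limma estimates from 3 arrays a line and standard errors as bars. SOX7 lies furthest to the right at 2.90 and SOX2 furthest to the left at -2.17.

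The change with erlotinib differed between the lines for 4 of 7 SOX genes (SOX4, SOX7, SOX9 and SOX13), against 45.2% of all tested genes (limma interaction). The difference was above 0 for 1 of them and below 0 for 3, where 21.2% and 23.9% of tested genes were called. For SOX12 the difference did not pass (limma, adjusted p = 0.55), and for SOX2 and SOX6, also not called, 1 line lay under the table's median. In 2 of the 4, SOX4 and SOX7, the erlotinib arrays of the lines overlapped on the brightest probe set, though not on the other SOX4 probe sets over the filter. In the other 2 PC9 stayed above HCC827 on every array with erlotinib, 1069.3 to 1192.4 against 777.3 to 860.5 for SOX9 and 170.8 to 192.1 against 103.1 to 134.9 for SOX13. With the actin ratio (log2) as covariate the HCC827 change was 0.70 for SOX4 (adjusted p = 0.00187 in limma), 0.84 for SOX7 (adjusted p = 2.14e-04) and 0.46 for SOX12 (adjusted p = 0.0132).

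Other SOX genes were mostly not seen in these lines. Of 11 listed, 2 passed the filter, and the other 9 read at most 10.2 on any array on their brightest probe set. SOX15, the G group member, was lower with erlotinib in PC9, with 147.3, 151.8 and 131.8 against 310.5, 266.4 and 308.8 in DMSO (log2 -0.999 ± 0.114, limma, adjusted p = 9.82e-07). In HCC827 it read 21.5 to 29.2 with erlotinib, against 19.4 to 24.4 with DMSO (limma, adjusted p = 0.349). SOX1, the other that passed, read 4.4 to 18.8 over all arrays and was not called in any comparison.

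Genes tied to SOX factors in other tissues gave mixed counts. They stand against 36.3% of all tested genes called higher and 28.3% lower in PC9, and 32.2% higher and 19.5% lower in HCC827. With 2 to 10 genes tested per list, nothing is read from the counts about a list. Among 7 tested genes of 8 listed as SOX4 and SOX11 targets, 5 rose and 2 fell in PC9 (median 0.37), and 3 rose and 2 fell in HCC827 (median -0.10), to be set against the shares just given. TEAD2, a partner of YAP, averaged 390 with erlotinib and 169 with DMSO in PC9, and 227 and 94.2 in HCC827 (log2 1.173 ± 0.09 and 1.197 ± 0.09; limma, adjusted p = 9.43e-09 and 1.70e-08). The RNA-binding protein MEX3A rose by 0.58 and 1.01 and the actin-binding DBN1 by 0.37 and 0.99 in PC9 and HCC827. SEMA3C, a secreted guidance cue, rose by 0.95 ± 0.12 in PC9 and fell by 1.24 ± 0.12 in HCC827 (limma, adjusted p = 4.15e-06 and 4.38e-07). These are the 4 called members with the largest changes.

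The TGF-beta list held ligands, receptors and SMADs as well as response genes, and 10 of 11 were tested. In PC9 6 rose and 1 fell (median 0.51), where 36.3% and 28.3% of all tested genes did. In HCC827 5 rose and 1 fell (median 0.19), where 32.2% and 19.5% did. The ligand TGFB2 averaged 3231 with erlotinib and 1508 with DMSO in PC9 and 2718 and 1776 in HCC827 (log2 1.10 ± 0.08 and 0.61 ± 0.08; limma, adjusted p = 9.43e-09 and 1.57e-05). SKIL, a feedback inhibitor of SMADs, rose by 0.90 in PC9 and 0.40 in HCC827, and SMAD7, another, by 0.89 in PC9. TGFBR2, the type II receptor, rose by 0.86 ± 0.09 in PC9 (limma, adjusted p = 2.94e-07). Neither SMAD7 nor TGFBR2 was called in HCC827 (limma, adjusted p = 0.119 and 0.2). Among the other tested members TGFBR1 rose in both lines (0.54 and 0.39). TGFB1 rose by 0.47 in PC9 and fell by 0.65 in HCC827, and PMEPA1 fell by 0.24 in PC9 and rose by 0.24 in HCC827. SMAD3 and TGFBI were called in neither line, and LTBP2 rose in HCC827 only (0.41). With median centring 5 rose in PC9 and 4 rose and 2 fell in HCC827. Fibroblast markers moved with erlotinib in both lines: their summed signal was 382.9 to 464.6 in PC9 with erlotinib and 77.9 to 104.2 with DMSO, and 612.8 to 680.2 in HCC827 with erlotinib and 153.9 to 180.7 with DMSO. Of those 5 markers COL1A1 and LUM passed the filter, DCN, PDGFRB and COL1A2 read at most 10.4, and their part in the SOX4 and TGF-beta results was not tested.

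Of 10 measured WNT and TCF genes 8 were tested; 3 rose and 3 fell in PC9 (median 0.092), where 36.3% and 28.3% of all tested genes did, and 0 rose and 2 fell in HCC827 (median 0.13), where 32.2% and 19.5% did. With median centring the PC9 counts were 2 and 4 and the median was -0.055. The 3 PC9 rises include TCF7L1, described next, and RNF43. Both PC9 means of RNF43 (9.63 with erlotinib and 4.7 with DMSO) lay under the table's median, and its difference is not read. TCF7L1, a TCF repressor, averaged 147 with erlotinib in PC9, against 9.93 with DMSO, under the table's median (limma, adjusted p = 2.99e-11). It passed the filter only through the PC9 erlotinib arrays, and the log2 difference was 2.09 to 3.77 over the settings. AXIN2, a WNT feedback gene, rose by 1.63 ± 0.14 in PC9, while the receptor ligase ZNRF3 fell by 0.73 ± 0.09 and TCF7L2 fell by 0.55 ± 0.08 (limma, adjusted p = 4.20e-08, 3.94e-06 and 2.53e-05). TCF7L2 also fell by 0.38 in HCC827 (limma, adjusted p = 0.00142), which was not called with the actin covariate (-0.34, adjusted p = 0.0601).

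Among 5 tested of 14 stem and basal programme genes tied to SOX2, 1 rose and 3 fell in PC9 (median -0.35), where 36.3% and 28.3% of all tested genes did, and 2 rose and 1 fell in HCC827 (median 0.12), where 32.2% and 19.5% did. KLF4, a reprogramming factor, averaged 122 with erlotinib and 365 with DMSO in PC9, and 397 and 650 in HCC827 (limma, adjusted p = 1.76e-10 and 3.44e-06). The basal keratin KRT5 fell by 1.49 ± 0.15 in PC9. PAX6, an eye and brain factor, rose by 1.40 ± 0.13 in HCC827 (limma, adjusted p = 1.95e-07). NES, a filament of progenitor cells, averaged 25.9 with erlotinib in HCC827, against 9.7 with DMSO, under the table's median (limma, adjusted p = 2.09e-05). It passed the filter only through those erlotinib arrays, and the log2 difference was 0.47 to 1.34 over the settings. PAX6 also passed as lower in PC9 (-0.35, adjusted p = 0.0262), a call lost without PC9 DMSO replicate 2 (-0.24) or 3 (-0.34) or PC9 erlotinib replicate 2 (-0.28).

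Of 11 cartilage genes under SOX5, SOX6 and SOX9 only MATN3 and COL9A2 passed the filter. The matrix protein MATN3 averaged 320 with erlotinib and 109 with DMSO in PC9, and 71.1 and 20.0 in HCC827 (log2 1.49 ± 0.17 and 1.51 ± 0.17; limma, adjusted p = 1.06e-06 and 1.93e-06). COL9A2, a minor cartilage collagen, averaged 23.6 with erlotinib in HCC827, against 9.47 with DMSO (limma, adjusted p = 1.65e-04). It passed the filter only through those erlotinib arrays, the other 3 groups lay under the table's median, and the log2 difference was 0.37 to 1.21 over the settings. Lung lineage genes, 9 tested of 12, rose in 3 cases and fell in 3 in PC9 (median 0.23, or 0.081 with median centring and near 0 with quantile normalization), where 36.3% and 28.3% of all tested genes did. In HCC827 1 rose and 2 fell (median -0.030), where 32.2% and 19.5% did. The PC9 counts include SCGB1A1 and NAPSA, described next. NKX2-1, the lung lineage factor, averaged 47.3 with erlotinib and 14.1 with DMSO in PC9 (limma, adjusted p = 5.15e-07), and in DMSO 14.1 in PC9 and 2088 in HCC827. Its PC9 DMSO arrays read 11.7, 20.5 and 10.2, around the table's median, and the PC9 log2 difference was 0.43 to 1.72 over the settings. The airway secretory gene SCGB1A1 fell to 4.1 with erlotinib in PC9, under the table's median, against 24.9 in DMSO (limma, adjusted p = 2.01e-06). It passed the filter only through the DMSO arrays, and the log2 difference lay anywhere from -2.35 to -0.65 with the setting. The alveolar protease NAPSA fell by 1.94 in HCC827 (limma, adjusted p = 4.88e-09). Its PC9 means, 10 with erlotinib and 3.93 with DMSO, lay under the table's median and are not read as levels.

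The genes most like each SOX gene were taken as those with the smallest root mean square difference of centred log2 values over the 12 arrays, which share lines and treatments. For SOX4 they were PNMA2 (0.131), BAZ2B (0.144) and RAB30 (0.150). For SOX13 they were SLC19A1 (0.143), ASB13 (0.151) and NUP210 (0.153), and for SOX9 NET1 (0.105), ZBED4 (0.106) and TMEM135 (0.111). For SOX7 they were LINC01537 (0.307), RNF144A (0.308) and NTSR1 (0.320). RNF144A was called lower in PC9 and higher in HCC827 (limma). LINC01537 and NTSR1 fell in PC9 but were not called in HCC827 (limma), where their means lay under the table's median. RPH3AL (0.122), APOBEC1 (0.132) and OTUB2 (0.139) were nearest to SOX2, and TNIK (0.118), CEBPA (0.124) and L3HYPDH (0.152) to SOX6, but with 1 or 32 added in place of 8 none of these 6 stayed among the nearest 3. SOX7 kept 1 of its 3 with 1 added and 0 with 32 added, and SOX9 kept 3 and 1. SOX4 kept 2 of 3 with either constant, and SOX13 kept 3 with 1 added and 2 with 32 added. The group means of SOX12 spanned under 1 log2 unit, so no gene was sought for it.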

How the data were processed

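The authors deposited 1 table of linear signal intensities, made with MAS5 per the submitters' processing notes (version not given in the sources used here). Averaged over the 12 arrays of this table, the 2% trimmed mean was 150. Detection calls are absent, so low signals were read against its median of 13. Of 54675 probe sets 62 are controls, 41091 carry 1 gene symbol in the platform annotation, 1801 several, and 11721 others none. SOX promoter windows came from RefSeq (GRCh38.p14): 6 of the 8 genes matched and were searched, and SOX7 and SOX9 are not shown. Of the searched windows those of SOX4, SOX12 and SOX13 are printed. The SOX5 window held 2 SOX core matches, and the first of 5 SOX6 windows held 2 SOX core matches and 1 AP-1 match. The SOX2 window held 1 match to the SOX and TCF core and 1 CCAAT match.

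Intensity plus 8 was log2 transformed and the brightest probe set per gene by mean log2 value was tested in limma 3.58.1 (R 4.3.3), with 4 group means, all 12 arrays, moderated variances with an intensity trend and Benjamini-Hochberg adjustment over 13185 genes. Contrasts were erlotinib minus DMSO in each line, their difference, and PC9 minus HCC827 in DMSO. On simulated data for the PC9 contrast (13185 genes, 200 changed) 77% of log2 changes of 0.5 and 100% of changes of 1 were recovered, with 14 false calls. Alternatives were other added constants, scalings, filters and probe set rules, no variance trend, the 6 arrays compared alone, a replicate block, a 1.5-fold test, the actin 3'/5' ratio as covariate, and arrays left out. The members, lists, motifs and alternatives were chosen with earlier results of these data known. Named genes were the 8 SOX genes, up to 4 called members of each list by largest change, and the 3 genes most alike. SOX1, RNF43, the marker genes and the other TGF-beta genes were named as members of their lists. All 12 arrays were used.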

Additional observations from a re-analysis of the deposited data

Results flagged for a closer look

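The change with erlotinib differed between PC9 and HCC827 for 4 SOX genes by the interaction term of limma. The PC9 change minus the HCC827 change was -3.01 on the log2 scale for SOX7, whose arrays moved down in PC9 and up in HCC827. It was -1.05 for SOX13, -0.52 for SOX9 and 0.76 for SOX4. The SOX9 difference did not pass on its other probe set (-0.44, adjusted p = 0.0728). Groups of 3 arrays are too small to be searched for single arrays that stand apart.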

How the results depend on the processing

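Of 713 values of single SOX genes under 26 alternative settings, 669 kept direction and side of the threshold, 34 lost the call, 5 gained it and 5 changed sign, none of these called. The sign changes were the SOX2 difference of responses with 1 added (-0.057), with the mean of probe sets (-0.128) and without PC9 DMSO replicate 2 (-0.004), and SOX9 in HCC827 without HCC827 DMSO replicate 3 (0.024) and without HCC827 erlotinib replicates 2 and 3 (0.030). Over the fits with 1 array left out the SOX2 difference ranged up to 0.237 and the SOX9 value down to -0.122. Of 1715 values of the list genes named for the largest changes, 36 lost the call and 1679 kept direction and side of the threshold. Their sizes moved with the constant added (SCGB1A1 in PC9 -2.35 to -0.65). Tested against a 1.5-fold change, the SOX genes called were 3 in PC9, 0 in HCC827 and 2 for the difference of responses, and the genes called overall were 2200, 1076, 1129 and, between lines, 3879. With the mean of all probe sets 2 SOX genes were called in HCC827. In HCC827 4149 genes were called with the actin covariate and 4399 without erlotinib replicates 2 and 3, against 6813; the spread of the single array left in the second fit was taken from the other groups. Probe sets tested singly gave 15704, 12531, 10526 and 18914 calls, as more features entered. Leaving out 1 array gave 5 to 6 SOX calls in PC9 and 3 to 4 in HCC827. Median centring moved the median change of all genes by -0.147 in PC9, relative to the deposited scaling. Same-numbered samples did not deviate together (r of deviations -0.255 to 0.131, 3 of 12 samples closest to their own number). With 3 arrays a group this cannot show whether they were handled together, and the main fit did not pair them. With the replicate block 8442 genes were called in PC9, 6654 in HCC827, 5759 for the difference and 9966 between lines, and 6, 4, 4 and 7 SOX genes. The constant added limits what can be said of SOX2 in PC9 and SOX6 in HCC827, and of MMP7 and NAPSA in PC9, TCF7L1 and SCGB1A1 in PC9, and NES and COL9A2 in HCC827, each with at least 1 group under the table's median.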
